A study of Mus musculus with 10 samples.

Results

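The genes described here build and organise the extracellular matrix of the brain and of scar tissue: 44 genes for collagens, laminins and other basement membrane proteins, proteoglycans, matricellular glycoproteins, and the enzymes and chaperone that fold and cross-link collagen. They were chosen by name, and the brightest detected probe stood for each gene. Of the 44 genes, 28 were measured, which made up 28 of the 9351 genes tested on the arrays. Among the measured genes, 20 were above background (detection p under 0.01) on all 10 arrays and 8 on some. Col6a2, a collagen VI chain, was above background on 1 array only and was not tested. A further 9 genes were below background on all 10 arrays: the fibrillar collagen chains Col1a2, Col3a1 and Col5a2, the laminin chain Lamb1, the lectican Vcan, the glycoproteins Tnr, Thbs1 and Postn, and the cross-linking enzyme Loxl2. No probe was assigned here to 6 genes (Col6a3, Col12a1, Nid2, Ncan, Fbn1 and Spp1). The account therefore covers 2 of the 5 fibrillar collagen chains listed, and nothing below speaks for the 16 genes without a measured level.

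RNA of brain tissue from 10-week-old C57/Bl6 mice was hybridised to 10 Illumina Mouse-6 bead arrays, so that each of 5 conditions is represented by 1 wild-type (WT) and 1 Cd93 knockout (KO) array. Cd93 is a transmembrane glycoprotein found on endothelium and on myeloid cells. The conditions were untreated brain, and the ipsilateral (occluded) and contralateral hemispheres after middle cerebral artery occlusion (MCAo), a stroke model in which a brain artery is closed and reopened. The 48 h protocol combined 60 min of occlusion with 48 h of reperfusion, and the 72 h protocol 30 min of occlusion with 72 h. Occlusion and reperfusion times thus changed together and cannot be told apart. The labels do not say how the Cd93 allele was made, whether 1 mouse or a pool gave each RNA, or if the hemispheres of a protocol belonged to the same animals. No group has a replicate, so each hemisphere difference below is a mean over both genotypes (n = 2 arrays a side). Its standard error (SE) rests on how the KO minus WT difference varied between the 5 conditions, drawn towards the spread of all genes. For a given gene it is the same in both protocols. It holds no separate measure of the spread between animals.

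Matrix proteins form a mesh outside cells that carries load, binds growth factors and anchors cell surface receptors. In healthy brain, fibrillar collagen is mostly confined to meninges and vessel walls, basement membranes of collagen IV, laminin, nidogen and perlecan sheathe the vessels, and the space between neurons and glia is filled with hyaluronan and lecticans such as brevican and aggrecan. After ischaemic injury the vessel sheath is broken down and rebuilt, and astrocytes, phagocytes and fibroblast-like cells surround the lesion with fibronectin, tenascin, collagens and small leucine-rich proteoglycans.

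Promoter sequences are shown for the genes on which the results turn, from RefSeq on GRCm38.p6, each running from 250 bases before to 50 bases after the start site. The array files name no genome build, and the windows are independent of the arrays. By symbol, 29 of the 44 genes matched, 18 of them measured. Col4a1 and Col4a2, which code for the chains of the collagen IV trimer, are shown because both were higher in the injured hemisphere. They are transcribed from opposite strands of chromosome 8, from start sites 21 bases apart (11312826 and 11312805), so that each runs across the start of the other. The Col4a1 window is chr8:11312777-11313076 on the minus strand and the Col4a2 window is chr8:11312555-11312854 on the plus strand. Capitals mark the 78 bases, 11312777 to 11312854, that both windows hold, read on opposite strands. Each of these bases lies after the start site of 1 gene or the other.
Col4a1: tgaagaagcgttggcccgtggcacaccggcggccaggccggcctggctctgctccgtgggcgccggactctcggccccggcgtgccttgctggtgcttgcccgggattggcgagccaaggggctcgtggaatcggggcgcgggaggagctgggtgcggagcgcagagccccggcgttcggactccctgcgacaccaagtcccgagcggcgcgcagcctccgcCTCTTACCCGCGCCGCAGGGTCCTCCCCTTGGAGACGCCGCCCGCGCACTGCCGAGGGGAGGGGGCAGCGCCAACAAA
Col4a2: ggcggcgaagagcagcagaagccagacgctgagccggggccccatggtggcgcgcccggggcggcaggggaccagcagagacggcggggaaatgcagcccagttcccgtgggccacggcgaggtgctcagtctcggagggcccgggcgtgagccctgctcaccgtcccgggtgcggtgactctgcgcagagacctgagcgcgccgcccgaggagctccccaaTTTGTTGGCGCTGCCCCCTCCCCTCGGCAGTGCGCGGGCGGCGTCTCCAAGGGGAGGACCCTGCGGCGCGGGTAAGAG

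Serpinh1, Tnc and Bcan are shown as the collagen chaperone, the listed glycoprotein with the largest rise and the lectican that fell in both protocols. Their windows are chr7:99353190-99353489, chr4:64046887-64047186 and chr3:88000307-88000606, all on the minus strand, and the Tnc window is the first of 2 start sites. Capitals mark the GC box, searched as GGGCGG on both strands.
Serpinh1: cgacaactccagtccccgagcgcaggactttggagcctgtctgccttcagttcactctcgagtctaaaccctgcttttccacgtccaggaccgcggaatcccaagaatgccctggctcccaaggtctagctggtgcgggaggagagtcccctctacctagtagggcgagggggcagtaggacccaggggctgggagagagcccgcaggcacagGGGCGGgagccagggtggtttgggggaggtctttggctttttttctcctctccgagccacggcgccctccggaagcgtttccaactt
Tnc: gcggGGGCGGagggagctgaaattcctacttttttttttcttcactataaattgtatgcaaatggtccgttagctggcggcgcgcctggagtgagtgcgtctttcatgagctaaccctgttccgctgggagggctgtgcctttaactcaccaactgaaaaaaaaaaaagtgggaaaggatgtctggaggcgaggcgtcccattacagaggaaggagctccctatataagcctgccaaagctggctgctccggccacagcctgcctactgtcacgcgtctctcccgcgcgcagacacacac
Bcan: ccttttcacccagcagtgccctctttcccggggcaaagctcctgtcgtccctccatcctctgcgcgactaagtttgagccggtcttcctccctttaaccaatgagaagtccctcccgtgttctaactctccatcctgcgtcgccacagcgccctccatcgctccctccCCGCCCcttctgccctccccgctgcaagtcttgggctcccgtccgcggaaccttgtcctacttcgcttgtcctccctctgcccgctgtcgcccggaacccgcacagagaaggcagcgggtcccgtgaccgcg
The measured genes had 20 windows, of which 15 (75.0%) held this GC box, against 35.7% of all 32851 mouse windows. The 2 Tnc windows overlap, so that matches in the bases they share, this GC box among them, count for each window. The motif CAGACA was in 9 of 20 windows (45.0%, against 21.0%), CCAAT in 7 (35.0%, against 37.4%), TATAAA in 3 (15%, against 13.6%), and TGANTCA and GAANNTTC in 1 each (5.0%, against 7.81% and 7.86%). These motifs were searched on both strands, their overlaps with each other were not examined, and a match describes letters in a window. The GC box was thus in windows of genes that rose and in that of Bcan, which fell.

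Between 12811 (KO untreated) and 16310 (KO ipsilateral at 48 h) of 46373 probes were above background per array. Cd93 itself read 5.10 to 6.24 on the log2 scale on the KO arrays and 6.17 to 8.66 on the WT arrays, lower in KO in every condition (difference -1.53, SE 0.18, limma adjusted p = 0.00221). All levels below are background-corrected, quantile-normalized log2 intensities, and a difference of 1 is a doubling. A gene is called where its adjusted p, over all 9351 genes, is under 0.05. Where every array of 1 side of a comparison was below background, the fold is given as a lower bound; fitted values that draw on such arrays in other comparisons are marked as such and are no exact sizes. Levels of different genes come from different probes and are not compared with each other. In bulk tissue, more cells of a type and more RNA per cell cannot be told apart.

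In both protocols, matrix genes were mostly higher in the injured hemisphere. At 48 h, 15 of 28 measured genes rose and 2 fell, against 20.7% of all genes called, 12.7% higher and 8.06% lower. At 72 h, 16 rose and 1 fell, against 14.4% of all genes called, 10.3% higher and 4.13% lower. A gene was tested if its probe was above background on 2 or more arrays. Col1a1, Col8a1, Lama5, Bgn, Lum and Lox met this on ipsilateral arrays only, so they entered through the side where they could rise. Lum and Lox are among the rises in both protocols, and Col1a1 and Bgn at 72 h. How many of all genes entered in this way is not given. The median difference of the 28 genes was 0.72 at 48 h and 0.77 at 72 h, against -0.020 and -0.055 over all genes tested, and 0.60 and 0.73 with the genes that have only a bound set to it. The same 14 genes rose in both protocols: Col4a1, Col4a2, Col18a1, Nid1, Hspg2, Dcn, Lum, Fn1, Tnc, Thbs2, Mgp, Serpinh1, Lox and Loxl1. Sparc passed at 48 h only, Col1a1 and Bgn at 72 h only, Bcan fell in both, and 9 genes passed in neither. For 17 of the 28 genes all 4 ipsilateral arrays lay above all 6 other arrays, as for 11.6% of all genes, and for 3 (Lama4, Bcan and Acan) all 4 lay below, as for 8.83%. Col1a1, Bgn, Lum and Lox are among the 17, with all 6 other arrays below background. The filter through which they entered favours this separation.

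**Figure D1:**
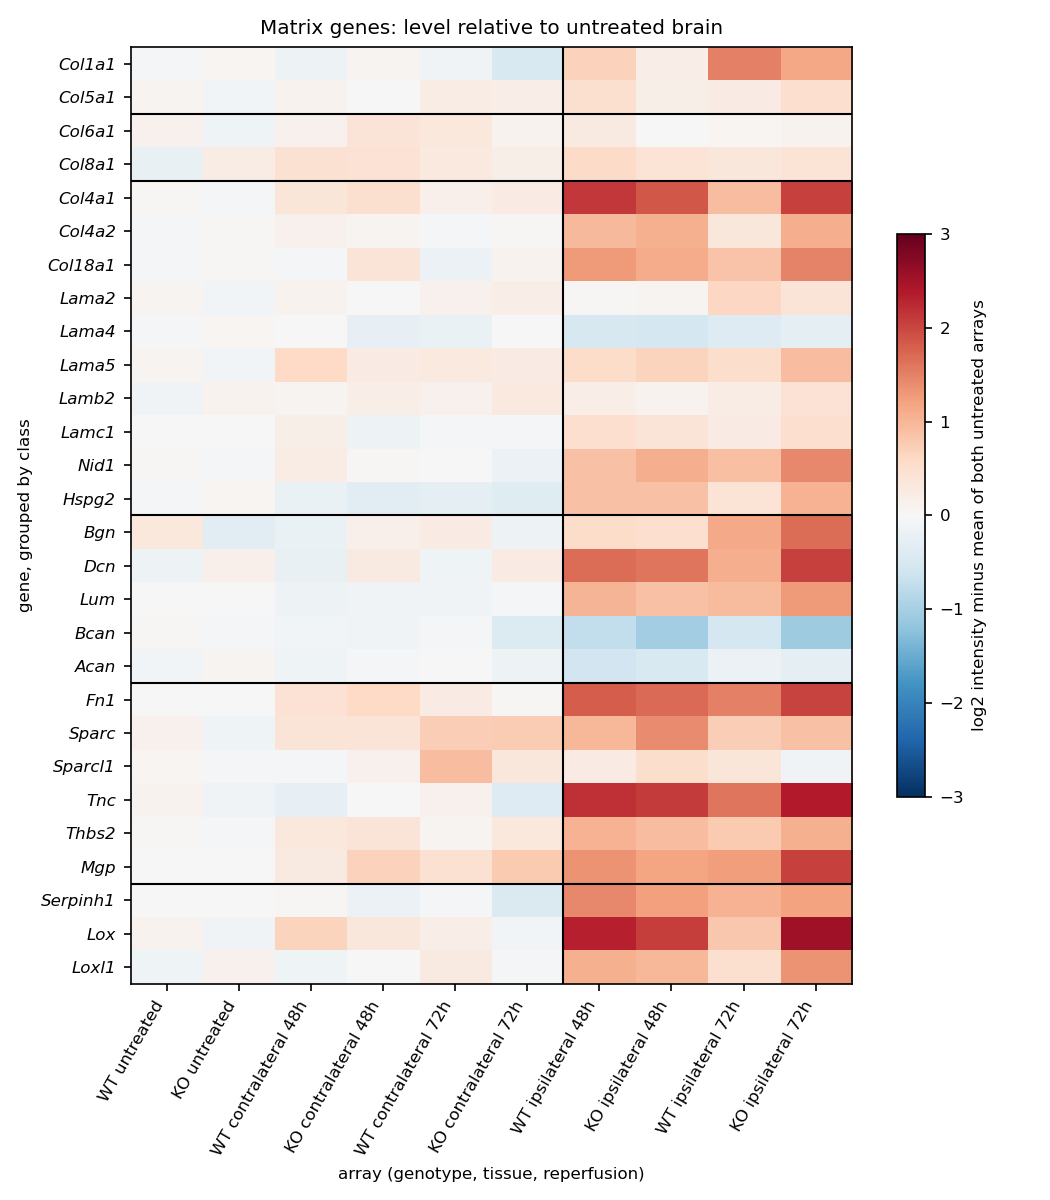
Log2 intensity of the 28 measured matrix genes (rows, grouped by class with black lines) on each of the 10 arrays (columns), as the difference from the mean of both untreated arrays; red is higher and blue lower. The contralateral columns stay mostly pale, with Sparc, Mgp and Sparcl1 light red at 72 h. The 4 ipsilateral columns are redder for 17 genes whose values there exceed all other arrays, and Bcan is light blue.

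These counts depended on the scaling and on single arrays. With median centring in place of quantile normalization the median of all genes moved to 0.43 at 48 h and 0.07 at 72 h, 24 and 18 matrix genes were called, all of them higher, against 52.6% and 12.7% of all genes, and Acan (0.064), Lama4 (0.12), Lama2 (0.44) and Col6a1 (0.39) changed sign at 48 h. Without the WT ipsilateral array 11 genes were called at 48 h, and without the KO ipsilateral or the KO contralateral array 11 were called at 72 h. Shares of all genes called with an array left out are not given, so these lower counts cannot be assigned to matrix genes in particular. Calls of 8 of 17 genes at 48 h and 9 of 17 at 72 h held under all alternatives that measured them: Col18a1, Hspg2, Dcn, Lum, Fn1, Tnc and Serpinh1 in both, with Col4a1 at 48 h and Col1a1 and Nid1 at 72 h.

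Among fibrillar collagens, the load-bearing rope proteins of scars and meninges, Col1a1 rose at 72 h and Col5a1 passed in neither protocol. Col1a1 codes for the main chain of collagen I. In each series of values below, WT comes before KO. Col1a1 read 5.12 and 5.23 in untreated brain, 5.02 and 5.25 contralaterally at 48 h, 5.06 and 4.71 contralaterally at 72 h, 5.88 and 5.38 ipsilaterally at 48 h, and 6.69 and 6.35 ipsilaterally at 72 h. All 4 ipsilateral values exceeded the 6 others, which were all below background, although the KO value at 48 h was close to them. Col1a1 was at least 2.73-fold higher ipsilaterally at 72 h (adjusted p = 0.000158), and at 48 h it did not pass (at least 1.35-fold, adjusted p = 0.0742; it passed without the KO contralateral array, adjusted p = 0.0410, and with median centring). Between the ipsilateral hemispheres it was higher by 0.89 (SE 0.18) at 72 h than at 48 h (adjusted p = 0.0313), the only listed gene of 28 called in that comparison, which called 3.34% of all genes (1.85% higher). That call was lost without any of the 4 ipsilateral arrays (highest adjusted p = 0.287). It was also lost with no detection filter and with condition as the only term. The hemisphere difference of Col1a1 itself, compared between protocols, did not pass (adjusted p = 0.195). Its fitted size rests on contralateral arrays below background and is not given.

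Col5a1, the chain of collagen V that helps set the width of collagen I fibrils, did not stand apart. Levels of Col5a1 were 7.17 and 6.99 untreated, 7.19 and 7.06 (48 h) and 7.30 and 7.27 (72 h) contralaterally, and 7.56 and 7.25 (48 h) and 7.33 and 7.60 (72 h) ipsilaterally. The ipsilateral and other arrays overlapped, and the differences were 0.28 at 48 h and 0.18 at 72 h (adjusted p = 0.184 and 0.435). With median centring Col5a1 passed at 48 h (0.77, against a median of 0.43 for all genes). The other collagens were flat too. In untreated brain Col6a1 stood at 9.46 and 9.21, in the contralateral hemisphere at 9.46 and 9.72 (48 h) and 9.66 and 9.44 (72 h), and in the ipsilateral hemisphere at 9.61 and 9.34 (48 h) and 9.39 and 9.45 (72 h). Col6a1, a chain of the beaded-filament collagen VI, thus overlapped between hemispheres (-0.11 and -0.13, adjusted p = 0.618 and 0.586), and a second probe for it passed in neither protocol. Col8a1 read 4.94 and 5.39 in untreated brain, 5.63 and 5.60 contralaterally at 48 h, 5.46 and 5.34 contralaterally at 72 h, 5.74 and 5.58 ipsilaterally at 48 h, and 5.52 and 5.57 ipsilaterally at 72 h. Col8a1, a network-forming collagen of vessels, was above background only on both ipsilateral arrays at 48 h, with values that overlapped the others (adjusted p = 0.849 and 0.560). With median centring Col8a1 passed at 48 h, where its fitted value lay below the median of all genes.

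Among basement membrane genes, those for collagens, nidogen and perlecan rose, and none of the laminin chains passed. At 48 h and at 72 h, 5 of 10 measured genes rose and none fell: Col4a1, Col4a2, Col18a1, Nid1 and Hspg2. The 5 laminin chains measured (Lama2, Lama4, Lama5, Lamb2 and Lamc1) did not pass in either protocol. With median centring 4 passed as higher at 48 h (all but Lama4) and 2 at 72 h (Lama2 and Lamc1), against 52.6% and 12.7% of all genes called. Under that scaling Lama2 and Lamb2 lay 0.007 and 0.080 above the median of all genes at 48 h, and Lamc1 0.49. At 72 h Lama2 and Lamc1 lay 0.45 and 0.49 above it. Whether laminins differ from the other genes was not tested. Levels of Col4a1 were 8.02 and 7.94 untreated, 8.36 and 8.47 (48 h) and 8.13 and 8.24 (72 h) contralaterally, and 10.10 and 9.85 (48 h) and 8.91 and 10.03 (72 h) ipsilaterally. Every ipsilateral array was above the 6 others, and the WT array at 72 h was the lowest of the 4. Col4a1 rose by 1.57 (SE 0.26, adjusted p = 0.00314) at 48 h and 1.28 (SE 0.26, adjusted p = 0.00903) at 72 h, where the call was lost with no detection filter or when the KO contralateral array was left out (adjusted p = 0.0661). Col4a2, its partner on the opposite strand, rose by 0.90 at 48 h and 0.72 at 72 h (adjusted p = 0.00742 and 0.0245). Its 72 h call was lost without the KO ipsilateral array or either contralateral array (highest adjusted p = 0.209) and with no detection filter, and its 48 h call without the KO contralateral or WT ipsilateral array (highest adjusted p = 0.0635).

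Hspg2 codes for perlecan, the large heparan sulphate proteoglycan of vessel sheaths. In untreated brain Hspg2 stood at 7.27 and 7.39, in the contralateral hemisphere at 7.14 and 7.0 (48 h) and 7.03 and 6.96 (72 h), and in the ipsilateral hemisphere at 8.20 and 8.22 (48 h) and 7.73 and 8.38 (72 h). The ipsilateral arrays again lay above all others. Hspg2 rose over the contralateral hemisphere by 1.14 (SE 0.17, adjusted p = 0.00197) at 48 h and 1.07 (SE 0.17, adjusted p = 0.00255) at 72 h. Its second probe also rose in both protocols. Col18a1 codes for collagen XVIII, whose cleaved end is endostatin. Col18a1 read 7.11 and 7.19 in untreated brain, 7.11 and 7.54 contralaterally at 48 h, 6.96 and 7.26 contralaterally at 72 h, 8.43 and 8.27 ipsilaterally at 48 h, and 8.0 and 8.63 ipsilaterally at 72 h. These groups did not overlap either, and the differences were 1.03 (adjusted p = 0.00324) and 1.20 (adjusted p = 0.00109). Nid1 codes for nidogen, the link between laminin and collagen IV. Levels of Nid1 were 6.10 and 6.01 untreated, 6.27 and 6.10 (48 h) and 6.07 and 5.88 (72 h) contralaterally, and 6.94 and 7.14 (48 h) and 6.97 and 7.50 (72 h) ipsilaterally. All 4 ipsilateral values stood above the rest, with differences of 0.85 (adjusted p = 0.00857) and 1.26 (adjusted p = 0.000797), and the 48 h call was lost without either KO array of that protocol (highest adjusted p = 0.0919).

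The laminin chains ranged at 48 h from -0.37 (Lama4, a vascular chain, adjusted p = 0.0640) to 0.43 (Lamc1, the common gamma chain, adjusted p = 0.0597). At 72 h the chains other than Lama5 ranged from -0.22 (Lama4, adjusted p = 0.273) to 0.41 (Lamc1, adjusted p = 0.0887). Lama4 was below all other arrays on the 4 ipsilateral arrays yet did not pass; it passed at 48 h without the KO contralateral array or on the 4 arrays of that protocol alone, and changed sign with median centring. Lamc1 was above all others on the same arrays and passed at 48 h under 6 other settings. Lama5 was above background only on the KO ipsilateral arrays, so that its differences are bounds (at least 1.14-fold at 48 h and 1.37-fold at 72 h, adjusted p = 0.438 and 0.0887).

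**Figure D2:**
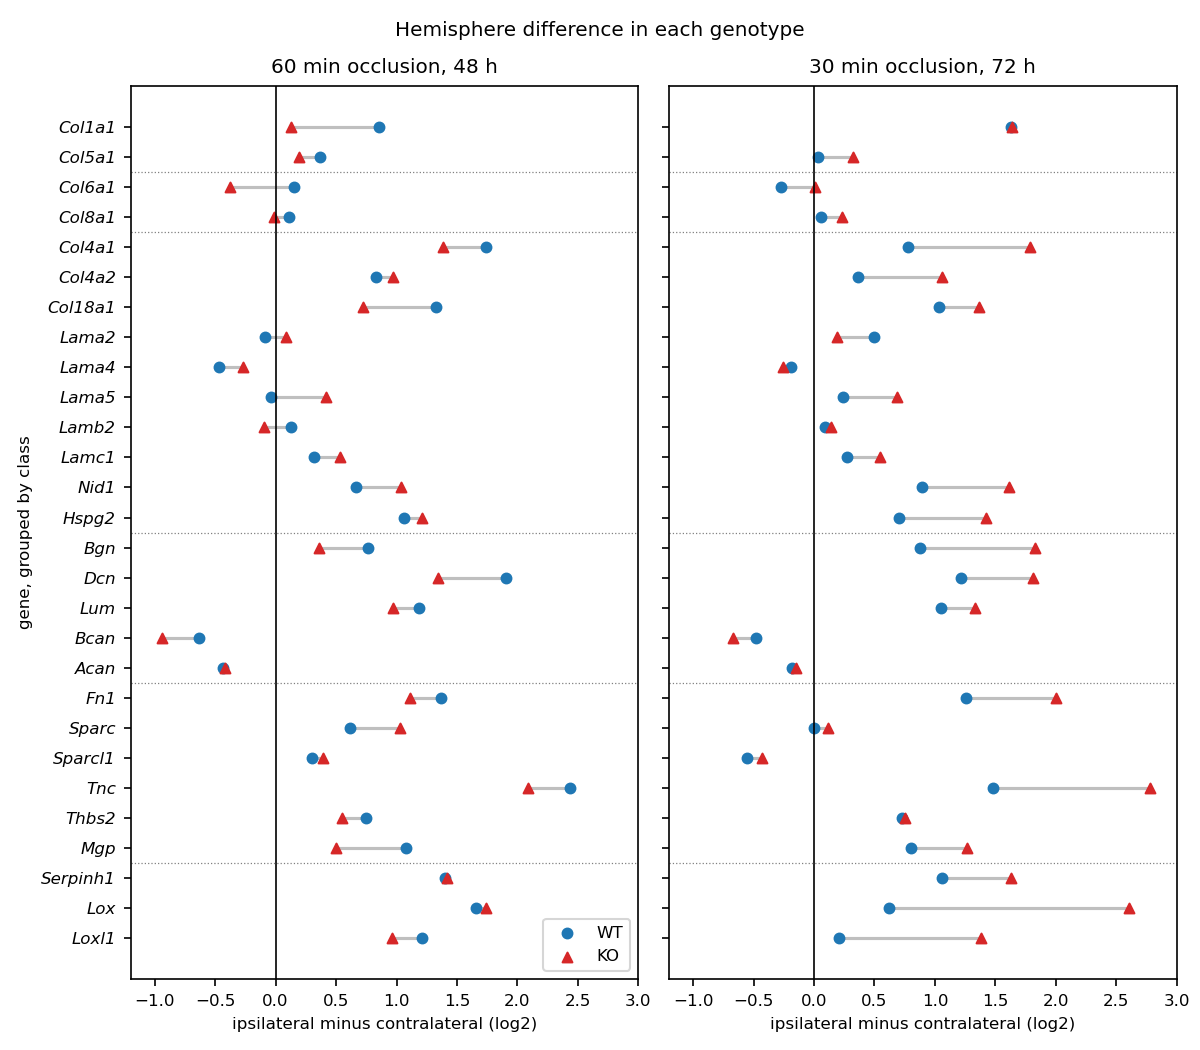
Ipsilateral minus contralateral log2 intensity (horizontal axis) of the 28 measured matrix genes (rows, grouped by class) in WT (circles) and KO (triangles), for the 60 min occlusion with 48 h (left) and the 30 min occlusion with 72 h (right); grey bars join both genotypes. Tnc and Dcn lie far to the right, as do Lox and Col4a1 except in WT at 72 h, and Bcan lies to the left. Points of the 8 genes below background on some arrays draw on those arrays. At 72 h the KO point is right of the WT point for 25 of 28 genes.

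Endothelial markers moved the same way as the basement membrane genes. Of 13 measured endothelial markers 9 rose and 1 fell at 48 h, and 6 rose at 72 h, with Vwf (1.31 and 1.87) and Cdh5 (1.14 and 1.14) among them. Their summed linear intensity was 8979 to 15081 on the ipsilateral arrays and 5989 to 8344 on the others, and of the 14 listed markers Tie1 was below background throughout. Of 7 measured pericyte and smooth muscle markers 1 rose at 48 h and 2 at 72 h, with summed intensities of 1539 to 2028 and 1475 to 1949, and Tagln, Myh11, Cnn1, Des, Abcc9 and Anpep were below background. The part of these cells in the matrix differences was not tested.

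Calls among proteoglycans went in opposite directions. At 48 h 2 of 5 measured genes rose (Dcn and Lum) and 2 fell (Bcan and Acan), and at 72 h 3 rose (Dcn, Lum and Bgn) and 1 fell (Bcan); with median centring none of these falls passed. Dcn codes for decorin, which coats collagen fibrils. In untreated brain Dcn stood at 8.83 and 9.15, in the contralateral hemisphere at 8.75 and 9.25 (48 h) and 8.86 and 9.23 (72 h), and in the ipsilateral hemisphere at 10.66 and 10.60 (48 h) and 10.08 and 11.04 (72 h). The 4 ipsilateral arrays were above all others, with the KO array at 72 h highest. Dcn rose by 1.63 (SE 0.20, adjusted p = 0.000487) at 48 h and 1.51 (SE 0.20, adjusted p = 0.000528) at 72 h, and all 4 probes kept for it rose in both protocols. Lum codes for lumican, a keratan sulphate relative of decorin. Lum read 4.58 and 4.60 in untreated brain, 4.43 and 4.50 contralaterally at 48 h, 4.49 and 4.54 contralaterally at 72 h, 5.62 and 5.47 ipsilaterally at 48 h, and 5.54 and 5.87 ipsilaterally at 72 h. Lum was above background on 3 arrays, all ipsilateral, and was at least 1.37-fold higher at 48 h and at least 1.61-fold higher at 72 h, where the KO array alone of the 2 measured it (adjusted p = 0.000434 and 0.000150). Bgn codes for biglycan, a further member of this family. Levels of Bgn were 5.64 and 5.03 untreated, 5.13 and 5.49 (48 h) and 5.59 and 5.17 (72 h) contralaterally, and 5.89 and 5.85 (48 h) and 6.46 and 7.0 (72 h) ipsilaterally. It was above background on the 4 ipsilateral arrays only, which exceeded all others, and was at least 2.55-fold higher at 72 h (adjusted p = 0.00461), a call lost without either KO array of that protocol (highest adjusted p = 0.0667). At 48 h Bgn did not pass (at least 1.47-fold, adjusted p = 0.128) except with median centring or on the 4 arrays of that protocol alone.

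Bcan codes for brevican, an abundant lectican of the adult brain. In untreated brain Bcan stood at 10.44 and 10.39, in the contralateral hemisphere at 10.32 and 10.30 (48 h) and 10.36 and 10.01 (72 h), and in the ipsilateral hemisphere at 9.68 and 9.36 (48 h) and 9.88 and 9.34 (72 h). Every ipsilateral array lay below all 6 others, and both KO values were lower than the WT values beside them. Bcan fell by 0.79 (SE 0.14, adjusted p = 0.00478) at 48 h and by 0.57 (SE 0.14, adjusted p = 0.0244) at 72 h, and its second probe fell in both protocols too. With median centring the differences were -0.31 and -0.48 and no longer passed (adjusted p = 0.151 and 0.113), against medians of 0.43 and 0.07 for all genes. The 48 h call was lost without the KO ipsilateral array (adjusted p = 0.0566), and the 72 h call without the KO ipsilateral or either contralateral array (highest adjusted p = 0.245), with no detection filter and with condition as the only term. Acan, the aggrecan of perineuronal nets, fell by 0.43 (SE 0.12, adjusted p = 0.0325) at 48 h, where it turned to 0.064 with median centring, and the call was lost without any 1 of the 4 arrays of that protocol (highest adjusted p = 0.185) and in the value table of the authors. With median centring the median of all genes at 48 h was 0.43, so Acan still lay below it. At 72 h Acan did not pass (-0.17, adjusted p = 0.393).

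Markers of several cell types differed between hemispheres beside the proteoglycans. Of 12 measured markers of fibroblasts and meninges, which share Dcn, Lum and Col1a1 with the matrix genes, 5 rose at 48 h and at 72 h and 1 fell at 48 h. Their summed intensity was 6371 to 7305 ipsilaterally and 5445 to 6561 on the other arrays, and the meningeal genes Foxc1, Foxd1, Crabp2, Slc6a20a and Fibin were below background. Of 10 neuronal markers 3 fell at 48 h and 2 at 72 h, with sums of 43980 to 49867 ipsilaterally against 52981 to 56019. Of 7 oligodendrocyte precursor markers 2 rose and 1 fell at 48 h, and 2 rose and 0 fell at 72 h. Their sums were 7591 to 8820 ipsilaterally against 6723 to 7341, and Cspg5 and Pcdh15 were below background. The part of any of these in the proteoglycan differences was not tested.

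Matricellular and adhesive glycoproteins, which sit in the matrix and alter how cells attach to it, rose in 5 of 6 measured genes at 48 h and 4 of 6 at 72 h. Tnc codes for tenascin-C, a protein of wounds and reactive glia. Tnc read 5.77 and 5.55 in untreated brain, 5.41 and 5.66 contralaterally at 48 h, 5.79 and 5.26 contralaterally at 72 h, 7.85 and 7.75 ipsilaterally at 48 h, and 7.27 and 8.04 ipsilaterally at 72 h. The 4 ipsilateral values were far above the others, of which only the WT untreated and the WT contralateral array at 72 h were above background. Tnc was at least 4.80-fold higher at 48 h (adjusted p = 0.000264) and rose by 2.13 (SE 0.25, adjusted p = 0.000247) at 72 h, where 1 of 2 contralateral arrays measured it. Fn1 codes for fibronectin, a plasma and matrix protein that integrins bind. Levels of Fn1 were 7.16 and 7.19 untreated, 7.61 and 7.76 (48 h) and 7.43 and 7.22 (72 h) contralaterally, and 8.98 and 8.88 (48 h) and 8.68 and 9.21 (72 h) ipsilaterally. No ipsilateral array came near the other 6, and Fn1 rose by 1.24 (SE 0.16, adjusted p = 0.000861) and 1.63 (SE 0.16, adjusted p = 0.000105).

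Mgp codes for matrix Gla protein, an inhibitor of calcification in vessel walls. In untreated brain Mgp stood at 9.12 and 9.10, in the contralateral hemisphere at 9.39 and 9.80 (48 h) and 9.55 and 9.89 (72 h), and in the ipsilateral hemisphere at 10.47 and 10.30 (48 h) and 10.36 and 11.16 (72 h). The ipsilateral arrays were highest, and the contralateral arrays lay between them and the untreated ones. Mgp rose by 0.79 (SE 0.20, adjusted p = 0.0231) and 1.04 (SE 0.20, adjusted p = 0.00676). The 48 h call was lost without either WT array or the KO contralateral array (highest adjusted p = 0.184), with no detection filter and with condition as the only term, and the 72 h call without the KO ipsilateral array (adjusted p = 0.0830). Thbs2 codes for thrombospondin 2, an inhibitor of vessel growth. Thbs2 read 7.06 and 6.99 in untreated brain, 7.33 and 7.42 contralaterally at 48 h, 7.10 and 7.34 contralaterally at 72 h, 8.08 and 7.96 ipsilaterally at 48 h, and 7.82 and 8.09 ipsilaterally at 72 h. Its ipsilateral values also exceeded all others. Thbs2 rose over the contralateral hemisphere by 0.65 (adjusted p = 0.00815) and 0.74 (adjusted p = 0.00384), with the 48 h call lost without either WT array (highest adjusted p = 0.0903) and the 72 h call without the KO ipsilateral array (adjusted p = 0.0621).

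Sparc codes for a collagen-binding matricellular protein. Levels of Sparc were 6.0 and 5.73 untreated, 6.25 and 6.26 (48 h) and 6.60 and 6.63 (72 h) contralaterally, and 6.86 and 7.28 (48 h) and 6.60 and 6.75 (72 h) ipsilaterally. The untreated arrays were lowest, the KO untreated one below background, and at 72 h both hemispheres read nearly alike. Sparc rose ipsilaterally by 0.82 (SE 0.15, adjusted p = 0.00538) at 48 h, not without the KO ipsilateral array (adjusted p = 0.0781), and differed by 0.06 (adjusted p = 0.835) at 72 h. The contralateral hemisphere at 72 h was above untreated brain by 0.75 (SE 0.15, adjusted p = 0.0471), the only listed gene called there, against 1.4% of all genes (1.1% higher). That call was lost when any of 9 of the 10 arrays was left out (highest adjusted p = 0.255) and under 4 other settings, median centring among them. Its relative Sparcl1 (hevin), an astrocyte product, did not pass in either protocol (0.35 and -0.49, adjusted p = 0.248 and 0.142). On the 4 arrays of each protocol alone Sparcl1 passed, as higher at 48 h and lower at 72 h. It also passed at 48 h with median centring (0.78, against a median of 0.43 for all genes). Sparcl1 was also 0.63 above untreated brain contralaterally at 72 h, which did not pass (adjusted p = 0.149).

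**Figure D3:**
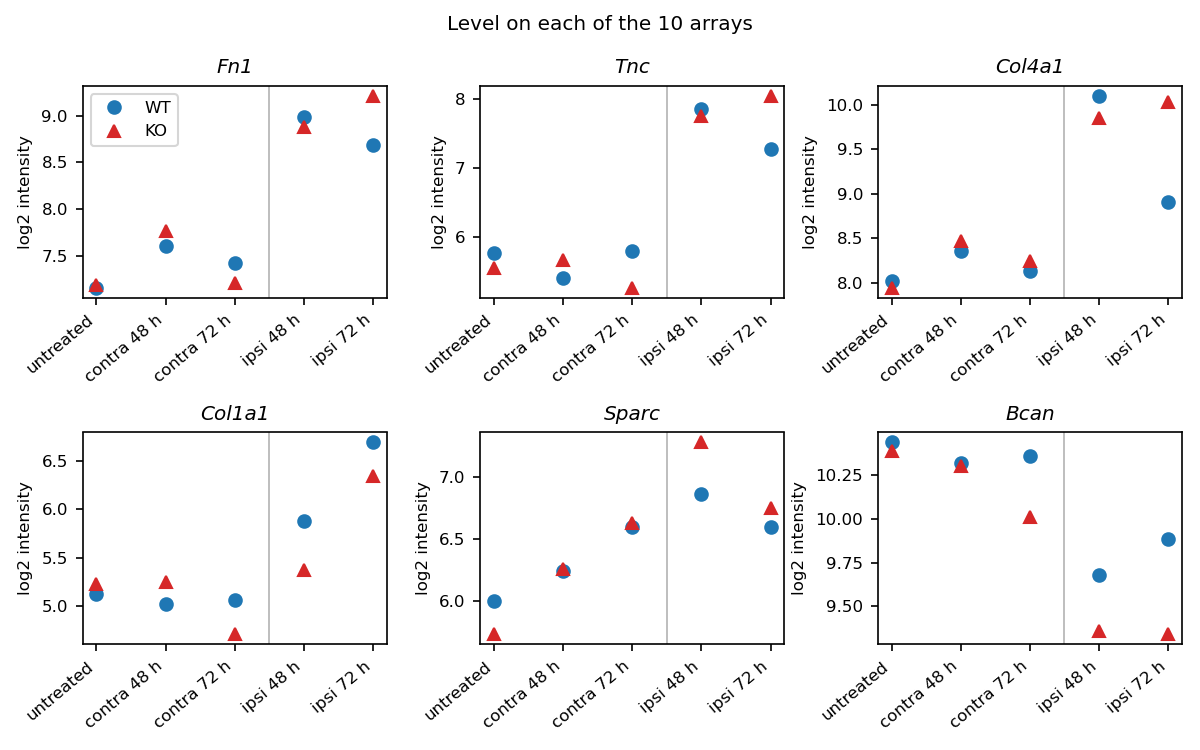
Log2 intensity (vertical axes, each with its own range) of 6 matrix genes on the 10 arrays, in WT (circles) and KO (triangles), with ipsilateral arrays right of the grey line. Fn1, Tnc and Col4a1 are high on all 4 ipsilateral arrays, Col1a1 is highest at 72 h, Sparc is also raised contralaterally at 72 h, and Bcan is low ipsilaterally.

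Macrophage markers moved with the glycoproteins, and only part of the astrocyte markers did. All 8 measured macrophage and microglia markers rose in both protocols, with summed intensities of 5001 to 12660 ipsilaterally and 813 to 1261 elsewhere, and Itgam and Ptprc were below background. Of 9 measured astrocyte markers 4 rose in each protocol and 1 fell at 48 h, Gfap by 1.61 and 1.46 and Vim by 2.39 and 2.68 among those that rose. The median difference of the 9 astrocyte markers was 0.24 at 48 h and 0.26 at 72 h. Of the 9 differences 7 and 6 were positive, and the lowest were -0.54 and -0.12. The astrocyte sums were 31463 to 34812 against 20513 to 23984, with S100b below background. The part of these cells was not tested.

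All 3 measured genes of collagen folding and cross-linking rose in both protocols. Serpinh1 codes for HSP47, the chaperone that procollagen needs in the endoplasmic reticulum. In untreated brain Serpinh1 stood at 8.58 and 8.55, in the contralateral hemisphere at 8.59 and 8.38 (48 h) and 8.54 and 8.13 (72 h), and in the ipsilateral hemisphere at 9.99 and 9.80 (48 h) and 9.60 and 9.76 (72 h). The ipsilateral arrays were clear of all others, and Serpinh1 rose by 1.41 (SE 0.14, adjusted p = 0.000165) and 1.34 (SE 0.14, adjusted p = 0.000135). Lox codes for lysyl oxidase, which cross-links collagen and elastin. Lox read 4.83 and 4.64 in untreated brain, 5.40 and 5.08 contralaterally at 48 h, 4.93 and 4.66 contralaterally at 72 h, 7.06 and 6.82 ipsilaterally at 48 h, and 5.55 and 7.27 ipsilaterally at 72 h. Lox was above background on 3 ipsilateral arrays, the WT array at 72 h being the exception at 5.55. It was at least 3.25-fold higher at 48 h (adjusted p = 0.0194) and at least 2.63-fold higher at 72 h (adjusted p = 0.0276). The 48 h call was lost without any 1 of that protocol's 4 arrays (highest adjusted p = 0.120), the 72 h call without either contralateral array (highest adjusted p = 0.166), and both with no detection filter and with a variance trend. Loxl1 codes for an enzyme of the same family that acts on elastic fibres. Levels of Loxl1 were 6.47 and 6.74 untreated, 6.47 and 6.62 (48 h) and 6.87 and 6.57 (72 h) contralaterally, and 7.68 and 7.59 (48 h) and 7.08 and 7.96 (72 h) ipsilaterally. Its ipsilateral values exceeded all others. Loxl1 rose over the contralateral hemisphere by 1.09 (adjusted p = 0.00986) and 0.80 (adjusted p = 0.0418), the latter lost when any of 8 of the 10 arrays was left out (highest adjusted p = 0.363), and the former without either WT array or the KO contralateral array (highest adjusted p = 0.0851).

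Compared with untreated brain, the contralateral hemispheres of both protocols together called 0 of 28 genes with limma, against 1.43% of all genes, with 6 at an unadjusted p under 0.05, against 15.5% of all genes. These were Sparc, Mgp, Thbs2 and Fn1, all with higher means contralaterally, and Col8a1 and Lama5, which were below background on both sides. The largest measured differences were Sparc at 0.57 (SE 0.13, adjusted p = 0.0742) and Mgp at 0.55 (SE 0.17, adjusted p = 0.166). The median of the 28 genes was 0.06, against 0.015 over all genes. The 48 h contralateral hemisphere alone called 0 genes against untreated brain, where 0.353% of all genes were called, with 6 at an unadjusted p under 0.05, against 10.5% of all genes. At 72 h Sparc was called, as given above, and Mgp (0.62, adjusted p = 0.149) and Sparcl1 did not pass. In the value table of the authors, whose arrays were normalized in pairs and so lack a common scale across conditions, 16 genes were called. The share of all genes called there is not given, so this count does not set matrix genes apart. Of 9 measured astrocyte markers 2 were called above untreated brain contralaterally, Gfap by 1.26 (adjusted p = 0.00458) and Vim by 0.88 (adjusted p = 0.0107). The other 7 were not called, only 5 of the 9 differences were positive, and the lowest was -0.45. The hemisphere difference, compared between protocols, called 0 of 28 genes with limma, against 0% of all genes, with 4 at an unadjusted p under 0.05, against 10.9% of all genes. These were Col1a1 and Bgn (adjusted p = 0.195 and 0.455), whose contralateral arrays were below background, Sparc at -0.76 (adjusted p = 0.243) and Sparcl1 at -0.84 (adjusted p = 0.325), 72 h minus 48 h.

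Cd93 genotype shifted no matrix gene past the threshold over all conditions. KO minus WT called 0 of 28 genes with limma, against 1.17% of all genes, and 3 had an unadjusted p under 0.05, against 17.9% of all genes: Dcn at 0.42 (SE 0.12, adjusted p = 0.140), Bcan at -0.26 (SE 0.09, adjusted p = 0.189) and Col18a1 at 0.25 (SE 0.11, adjusted p = 0.262). Dcn was higher in KO in 4 of the 5 conditions and 0.06 lower at 48 h ipsilaterally. Whether the genotype difference was larger in ipsilateral than in other tissue was fitted as an interaction, which called 0 of 28 genes, against 0% of all genes. Nid1 (0.52, SE 0.16) and Lama5 (0.45, SE 0.16) had an unadjusted p under 0.05, against 3.84% of all genes, and an adjusted p of 0.998; for Lama5 all but 2 arrays were below background. With 1 ipsilateral array at 48 h left out, the interaction rested on the 72 h protocol. Leaving out the KO or the WT array there gives the same fit, with a difference of 1.98 for Lox. For Lox the WT ipsilateral array at 72 h and the 6 contralateral and untreated arrays were below background, so this is no exact size.

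Array by array, the genotypes differed most at 72 h ipsilaterally. There 23 of 28 genes were higher in KO, against 4276 of all 9351 genes. The median difference was 0.30 against -0.02 over all genes, and 12 genes were at least 0.5 higher, against 4.68% of all genes. Each genotype has 1 array in a condition, so these differences have no replicate check. The interaction above pools the ipsilateral arrays of both protocols and cannot check a difference at 72 h alone. The 12 were Lox, at least 3.29-fold higher in KO with the WT array below background, and Col4a1 (1.12), Dcn (0.96), Loxl1 (0.88), Mgp (0.80), Tnc (0.77), Col4a2 (0.75), Hspg2 (0.65), Col18a1 (0.62), Bgn (0.54), Nid1 (0.53) and Fn1 (0.53). Bcan was 0.55 lower in KO (difference -0.55), and Col1a1, the gene called between ipsilateral hemispheres, was not among the 12 (-0.35). At 48 h ipsilaterally 8 of 28 genes were higher in KO, against 4509 of all 9351 genes. Their median there was -0.10, and 0 genes were at least 0.5 higher, against 1.47% of all genes. In untreated brain and in the contralateral hemispheres at 48 h and 72 h, 0 genes were at least 0.5 higher, against 1.8%, 3.15% and 3.99% of all genes. At least 0.5 lower in KO were 1 gene untreated (Bgn), 2 contralaterally at 72 h (Tnc and Sparcl1) and 1 ipsilaterally at 48 h (Col1a1). Over all 9351 genes these counts were 239, 438 and 114. Both untreated arrays were below background for Bgn, as was the KO contralateral array at 72 h for Tnc. Measured as the hemisphere difference, KO exceeded WT for 25 of 28 genes at 72 h (medians 1.17 and 0.56) and for 12 of 28 at 48 h (medians 0.54 and 0.76). Counts and medians over all genes are not given for this measure, so it does not set matrix genes apart.

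**Figure D4:**
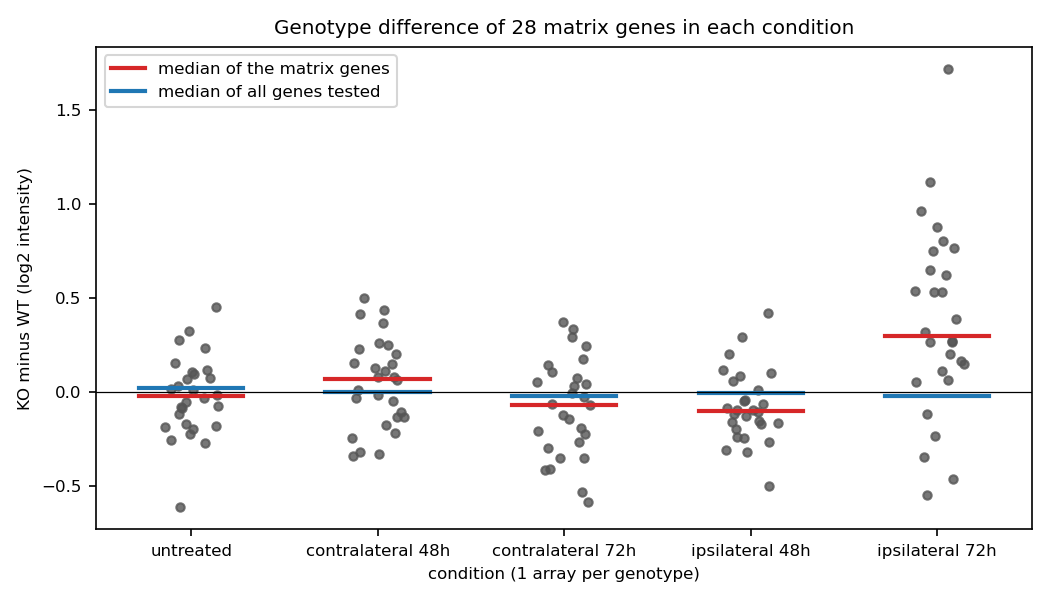
KO minus WT log2 intensity (vertical axis) of the 28 measured matrix genes (points, spread sideways at random) in each of the 5 conditions, from 1 array per genotype, with the median of the matrix genes in red and of all genes tested in blue. The points centre near 0 except at 72 h ipsilaterally, where the median is 0.30; the topmost point there, Lox, rests on a WT array below background, so its height is no exact difference.

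Endothelial markers differed in the same array pair. At 72 h ipsilaterally 10 of 13 endothelial markers were at least 0.5 higher in KO, with a median of 0.69, and their summed intensity was 15081 in KO and 8979 in WT. At 48 h ipsilaterally the sums were 12715 and 11681. Macrophage markers had a median difference of 0.27 at 72 h (sums 12660 and 9341), fibroblast and meningeal markers -0.02 (7152 and 7299), and neuronal markers -0.07 (46089 and 49867). The part of these cells, and of the extent of injury, in the difference between these 2 arrays was not tested.

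A further list of 180 matrix genes, from minor collagens and processing enzymes to sulphation enzymes and receptors, gives the surroundings of the 44. Of these 91 were measured. At 48 h 21 rose and 4 fell (median 0.14), and at 72 h 23 rose and 3 fell (median 0.09), against the shares of all genes given above. Tgfbi, an integrin-binding protein that TGF-beta induces, rose by 3.26 and 3.18 (adjusted p = 6.90e-05 and 3.00e-05), the largest rise of the list. Cd44, the hyaluronan receptor, rose by 2.47 at 48 h, where 1 of 2 contralateral arrays measured it, and was at least 5.49-fold higher at 72 h (adjusted p = 5.86e-05 and 1.74e-05). The third was Chst7, a chondroitin sulphotransferase, at 48 h (at least 2.26-fold, adjusted p = 0.00468, lost without the WT contralateral array at 0.0532) and Ecm1, a secreted matrix glycoprotein, at 72 h (1.81, adjusted p = 0.00143).

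Procollagen processing enzymes were the class with most rises at 72 h, 7 of 13 measured genes against 4 at 48 h, and other collagens and elastic fibre genes followed with 6 of 17 against 3. Whether the classes differ was not tested. The genes with the largest falls at 48 h were Matn4, a matrilin (-0.58), Gpc3, a glypican (-0.47), and Loxl4, a lysyl oxidase relative (-0.42). With median centring these were -0.09, -0.02 and -0.11, against a median of 0.43 for all genes, and none passed. At 72 h the genes were Lamb3, a laminin chain (at least 1.63-fold lower), Loxl4 (at least 1.40-fold lower) and Gpc5, a glypican (-0.46), which also lost their calls with median centring. Contralaterally 3 of 91 genes were called against untreated brain, Sdc4 (a syndecan, 0.65), Gpc5 (0.51) and Matn1 (a matrilin, at least 1.51-fold, with 2 of 4 contralateral arrays above background), with 13 at an unadjusted p under 0.05, against 15.5% of all genes. Their calls were lost under 9 (Sdc4) and 13 (Gpc5 and Matn1) of the 18 or 19 other settings. In KO against WT 1 of 91 was called, Hapln2, a link protein of the nodes of Ranvier, at 0.54 (SE 0.08, adjusted p = 0.00966), lost without either ipsilateral array at 48 h and with genotype as the only term, with 18 genes at an unadjusted p under 0.05, against 17.9% of all genes.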

How the data were processed

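RNA of 10 mouse brain samples was profiled on Illumina Mouse-6 arrays, per the labels. The deposited non-normalized table holds a linear bead intensity per probe and array, per the file headers, and beside each deposited intensity a detection p-value stored as 1 minus p, which was turned round. A second deposited table gives intensity that the authors had quantile-normalized in 5 pairs of arrays, read from its sorted values, and served as an alternative. Software is not given in the sources used here. The nec function of limma 3.58.1 (R 4.3.3) removed background with an offset of 16, and quantile normalization and log2 followed. Among the 46373 probes, 29800 had 1 gene, 10 several and 16563 none in the platform annotation, and 29758 matched RefSeq. A probe entered the test when 2 or more arrays gave it a detection p under 0.01, and the brightest stood for each of 9351 genes.

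One additive limma model of 5 conditions and genotype was fitted across all genes (4 residual degrees of freedom, 3 with the genotype-by-ipsilateral interaction), with Benjamini-Hochberg adjustment within each comparison. The fit was tested on simulated data. Where 1 side was below background, the bound was taken against the higher of the lowest detected level and the probe's own value on each array. The number of arrays limits precision.

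The members, lists, tests and alternatives were chosen with earlier results of these data known. Levels on every array are given for up to 4 genes per class with the largest mean hemisphere difference and for listed genes called in other comparisons. Of the other matrix genes, up to 3 per direction were named in each hemisphere comparison, and those called in the contralateral and genotype comparisons, 3 and 1, were named after their values were seen. Alternatives were no background correction, an offset of 50, median centring, keeping probes regardless of detection or only those detected on all 10 arrays, testing every detected probe, the authors' value table, a trended and robust prior, condition or genotype as the only term, the 4 arrays of a protocol, and each array left out.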

Additional observations from a re-analysis of the deposited data

How the results depend on the processing

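Counts of matrix genes called in the hemisphere comparisons stayed between 12 and 24, within 1.5 times the 17 reported, under every alternative other than leaving out an array. Leaving out 1 array gave 11 to 18 genes at 48 h (11 without the WT ipsilateral array of that protocol) and 11 to 19 at 72 h (11 without the KO ipsilateral and 11 without the KO contralateral array). With an array left out, shares of all genes called are not given, so these ranges do not set matrix genes apart. Contralateral minus untreated called 16 genes in the value table of the authors, where arrays of different conditions lack a common scale, and 0 under every other alternative. The interaction called 0 genes, except without the KO or the WT ipsilateral array at 48 h. Both cases are the same fit, the one given for Lox above. The 72 h contralateral hemisphere against untreated brain called 1 gene (Sparc) as reported, 7 in the value table of the authors and otherwise 0 or 1, and the 48 h one 13 in that table and otherwise 0. Ipsilateral 72 h minus 48 h called 1 as reported and 0 to 2 under alternatives other than median centring, which called 5 and moved the median of all genes to -0.26. KO minus WT and the comparison of protocols called 0 throughout. For the comparisons with untreated brain and between ipsilateral hemispheres, shares of all genes under these alternatives are not given. Those counts do not set matrix genes apart. With median centring the median of all genes at 48 h was 0.43. Signs turned there for Col6a1 (0.39), Lama2 (0.44), Lama4 (0.12) and Acan (0.064), of which only Acan had been called. With an array left out, signs also turned for uncalled genes, whose ranges at 48 h were -0.33 to 0.10 for Col6a1, -0.077 to 0.17 for Col8a1, -0.085 to 0.083 for Lama2, -0.011 to 0.38 for Lama5 and -0.12 to 0.15 for Lamb2, and at 72 h -0.035 to 0.39 for Col5a1. The cause of these changes was not tested. Detection on all 10 arrays leaves out the 8 genes measured on some arrays only. No paired analysis was possible because the labels give no replicate number or shared animal. The fit of a protocol's 4 arrays with its genotype term sets the hemispheres of 1 genotype against each other. It called 21 genes at 48 h and 19 at 72 h, against 35.0% and 17.8% of all genes. All 17 reported calls were among them in each. Hemisphere folds of genes near background, such as Lum, Bgn, Lox and Col1a1, are mostly bounds, and 16 of 44 genes were not measured.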
